A study of Oryctolagus cuniculus with 4 samples.

Results

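VLDLR, the very low density lipoprotein receptor gene, and APOD, the apolipoprotein D gene, were followed across 4 arrays of rabbit ligamentum flavum, an elastic ligament of the spine that spans the gap between adjacent vertebral arches. They were found as all probes whose accession is a RefSeq transcript of either gene, which gave 5 probes of 43603 on the array and 2 genes of the 1489 that could be named. VLDLR had 4 probes, A_04_P000881, A_04_P000882, A_04_P000883 and A_04_P102632, all designed to NM_001082188, and APOD had 1 probe, A_04_P003316, designed to NM_001082258. RefSeq lists 5 transcripts for VLDLR and 1 for APOD, and where in the transcripts the probes lie was not analysed here. Both genes were chosen by their ratios on these same arrays, VLDLR for a high ratio at the ISC level and APOD for a high ratio at the fused levels, so their levels and ratios below are a description, and no test was made of them.

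All samples came from male rabbits aged 34 weeks, labelled as 16 weeks after surgery. Per the labels, surgery at 18 weeks of age resected muscle over L3/4 and fused L2/3 and L4/5 posterolaterally with instrumentation. One group is the level between the fusions, L3/4, called the intervertebral stress concentration (ISC) level, and another is its L3/4 control. The third is the fused pair, L2/3 with L4/5, and the last is the control for that pair, named the flanking control here. Each group was 1 single-colour Agilent array. Whether controls were operated on, and whether animals or the levels L2/3 and L4/5 were pooled, is not given in the sources used here. Stress or relief of movement and the local surgery cannot be told apart in these groups. Without replicates the spread between animals is unknown, and precision is limited by the number of arrays. The errors given are the scanner's own error of each spot's signal, which covers the array and says nothing of animals.

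Levels are log2 signals minus the array's 75th percentile, so 0 is a signal at that percentile, and a ratio is the difference of such levels between arrays. A ratio of 1 is 2-fold, which is used as a fixed size and not as a test. Among features well above background on both arrays, a feature being a named gene or otherwise an accession or probe name, the share at least 2-fold apart was 19.6% for the ISC level against its control, 17.0% for the fused levels against theirs, and 17.6% for the control arrays against each other. With the controls exchanged it was 8.57% for the ISC level and 24.2% for the fused levels, and it was 14.7% for the ISC level against the fused levels. Between 59.6% and 67.9% of probes were well above background, and all arrays lay on 1 slide. The ligament genes COL1A2, a type I collagen chain, and DCN, decorin, were well above background on all 4 arrays. The tenomodulin gene TNMD, which marks cells of tendon and ligament, passed on the other 3 arrays but not on that of the fused levels, where it was at least 3.33-fold below the flanking control and at least 3.20-fold below the L3/4 control.

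VLDLR encodes a lipoprotein receptor of the cell surface. It binds triglyceride-rich lipoproteins that carry apolipoprotein E, works beside lipoprotein lipase in tissues that take up fatty acids, such as heart, skeletal muscle and fat, and is also a receptor for reelin. Apolipoprotein D is not related to most other apolipoproteins. It is a lipocalin, a small secreted protein that carries arachidonic acid, steroids and other lipids in a pocket. It is made by many tissues, including fibroblasts and nerve. In bulk tissue, fewer cells of a type and less RNA per cell cannot be told apart.

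The receptor gene VLDLR was highest in the flanking control and lowest in the L3/4 control, so the arrays of control ligament lay at the opposite ends of its range. Its brightest probe, A_04_P000882, had a level of 1.20 at the ISC level, −1.0 in the L3/4 control, 1.45 at the fused levels and 2.47 in the flanking control. As processed signals these were 216 ± 21.6, 26.7 ± 2.94, 233 ± 23.4 and 404 ± 40.4 (± scanner error, 1 spot each), in the same order. Both the stressed and the fused levels thus lay between the control arrays. The ISC level and the fused levels were neighbours in this order and differed by 0.25 ± 0.20, close to the scanner's error, whereas each was more than 2-fold from either control array.

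**Figure D1:**
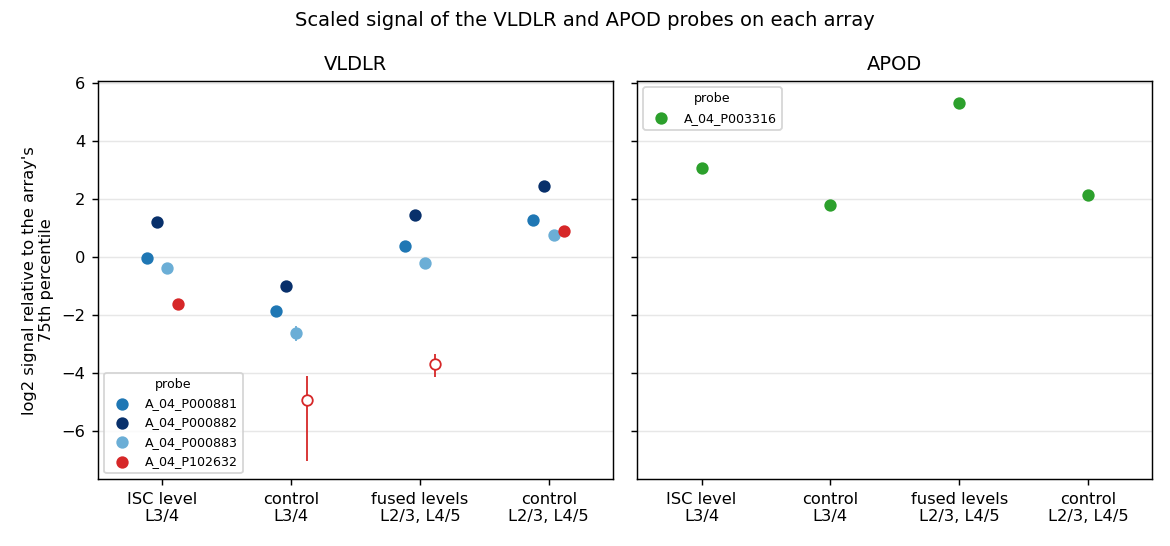
Log2 signal relative to the array's 75th percentile (vertical axis) on each of the 4 arrays (horizontal axis) for the 4 VLDLR probes and the 1 APOD probe; bars are the scanner's error, open circles are spots not well above background, and levels of different probes are not comparable with each other; the flanking control is drawn as control L2/3, L4/5. For 3 VLDLR probes the order is the same, with the flanking control highest and the L3/4 control lowest, and APOD stands highest at the fused levels at 5.32.

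Setting the ISC level against the L3/4 control addresses concentrated mechanical stress on the ligament together with the local surgery. VLDLR signal was 4.61-fold higher at the ISC level, a log2 ratio of 2.20 ± 0.21. The receptor ranked 9 from the top of 966 named genes, and 108 of 13729 features, itself included, had a ratio at least as high. Set against the flanking control, the same ISC array was 2.41-fold lower, at −1.27 ± 0.20. The direction of the VLDLR difference at the stressed level therefore depended on which control array was used, and the mean of both controls gave 0.47. Both ratios rest on the same ISC array.

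Setting the fused levels against the flanking control addresses relief of movement together with the fusion surgery. Here VLDLR was 2.03-fold lower, a log2 ratio of −1.02 ± 0.20, just past the fixed size. Probes A_04_P000881 and A_04_P000883 were just short of it, at −0.90 ± 0.21 and −0.96 ± 0.21. Against the L3/4 control the fused levels were 5.47-fold higher, at 2.45 ± 0.21, and against the mean of the controls the ratio was 0.71. This direction, too, was set by the control array.

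Between the control arrays themselves, VLDLR was 11.1-fold lower in the L3/4 control, a log2 ratio of −3.47 ± 0.21. This exceeded the size of its difference at the ISC level and at the fused levels against the control of the same level. Of 13137 features, 40 had a ratio as low or lower, VLDLR included. Without replicate arrays, the gap between the controls cannot be assigned to lumbar level, and the part of level in it was not tested. The control arrays also differed in muscle signal, with muscle genes summing to 869 in the flanking control and 28 in the L3/4 control. VLDLR was chosen for a high ratio at the ISC level, which favours a low signal in the L3/4 control. Its gap and its place among the features are therefore no independent measure of the background between controls.

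**Figure D2:**
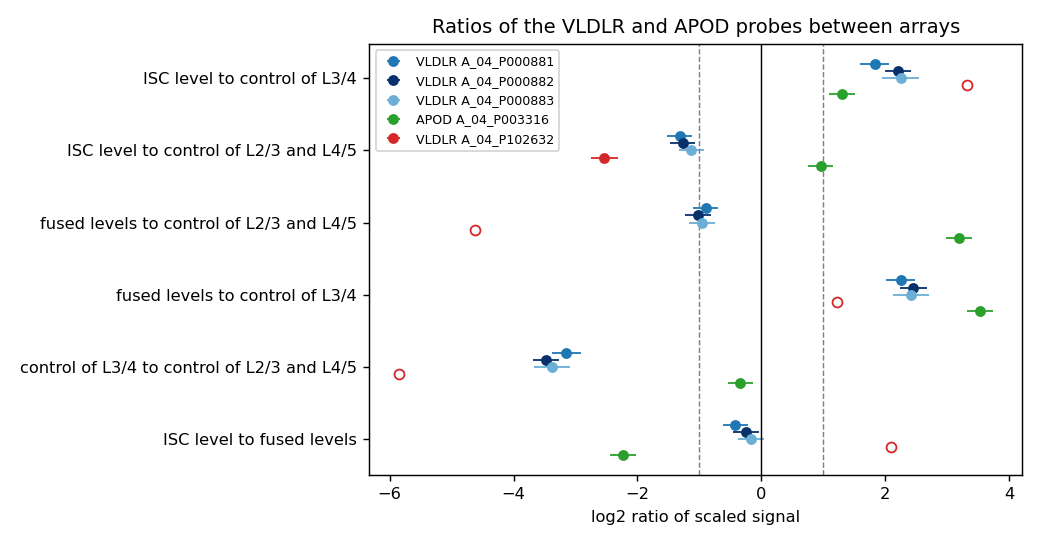
Log2 ratio of scaled signal (horizontal axis) for each VLDLR and APOD probe in 6 pairings of the arrays (vertical axis); bars are the combined scanner error, open circles have a spot not well above background on at least 1 array, and dashed lines mark 2-fold. VLDLR lies on opposite sides of 0 when the ISC level or the fused levels are set against the one or the other control, while APOD at the fused levels lies at 3.19 and 3.53.

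The 4 VLDLR probes did not give the same picture. Probes A_04_P000881, A_04_P000882 and A_04_P000883 were well above background on all 4 arrays, kept 1 order of the arrays, and correlated with each other at Pearson's r of 0.995 to 0.999 over the 4 arrays, given as a description. At the ISC level their ratios to the L3/4 control were 1.83, 2.20 and 2.25, a mean of 2.09 ± 0.23 (SD over 3 probes). At the fused levels their mean ratio to the control was −0.96 ± 0.061 and between the controls it was −3.33 ± 0.17 (SD over 3 probes each). Probes of 1 gene on 1 array share the RNA sample, so this spread describes the probes only.

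Probe A_04_P102632 differed. Its processed signal was 30.5 ± 3.40 at the ISC level, 1.75 ± 1.35 in the L3/4 control, 6.54 ± 1.75 at the fused levels and 137 ± 13.8 in the flanking control (± scanner error). It was well above background at the ISC level and in the flanking control only. In the other probes the ISC level lay little below the fused levels, at log2 ratios of −0.42 ± 0.21, −0.25 ± 0.20 and −0.16 ± 0.21. Here the ISC level was at least 3.99-fold above the fused levels. The fused levels were at least 23.2-fold below their control by this probe, against 2.03-fold by A_04_P000882. Bounds of this kind set the brighter array against the higher of the dim spot's own signal and the lowest signal that passed as well above background there.

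At the ISC level the same probe was at least 2.89-fold above the L3/4 control, and at −2.54 ± 0.22 to the other control, where both spots were well above background. In each pairing of which at least 1 spot was well above background and 1 array was a control, the direction was thus that of the other probes, while the sizes were not. With this probe included, the mean ratio over probes at the fused levels was −1.88 rather than −0.96.

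The distance of A_04_P102632 from the median profile of the VLDLR probes was 2.68 on the log2 scale, over the 4 arrays. This put VLDLR at rank 9 of 326 named genes with at least 3 probes well above background on at least 2 arrays, for which the median of the largest such distance was 0.47. The spot lies in row 532, the last row of the array. Feature Extraction marked its local background as a population outlier on the arrays of the fused levels and of the flanking control, as it did for 47 and 63 of the 63 probe spots of that row. In the other rows the share of spots so marked was 2.19% and 1.76% on these arrays, and in the last row of the ISC and L3/4 control arrays it was 0 of 63 spots. The median ratio of the 36 last-row probes measured at the fused levels was −0.22, beside −0.09 over all measured probes. The part of the array edge in the values of A_04_P102632 was not tested.

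Skeletal muscle, a tissue known for its VLDLR, was unequal between the arrays. The summed signal of 13 named muscle genes was 869 times the 75th percentile in the flanking control, where VLDLR was highest, and 28.3 at the ISC level, 28 in the L3/4 control and 14.7 at the fused levels. All 13 were well above background in the flanking control and at the ISC level. In the L3/4 control 10 were, and MYOZ1, PYGM and RYR1 were not. The part of muscle in the high VLDLR signal of the flanking control was not tested. The muscle sum was nearly equal at the ISC level and in the L3/4 control, the pair of arrays between which VLDLR differed 4.61-fold. Of the fused levels and the L3/4 control, the fused levels had the lower muscle sum, while their VLDLR was 5.47-fold higher.

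**Figure D3:**
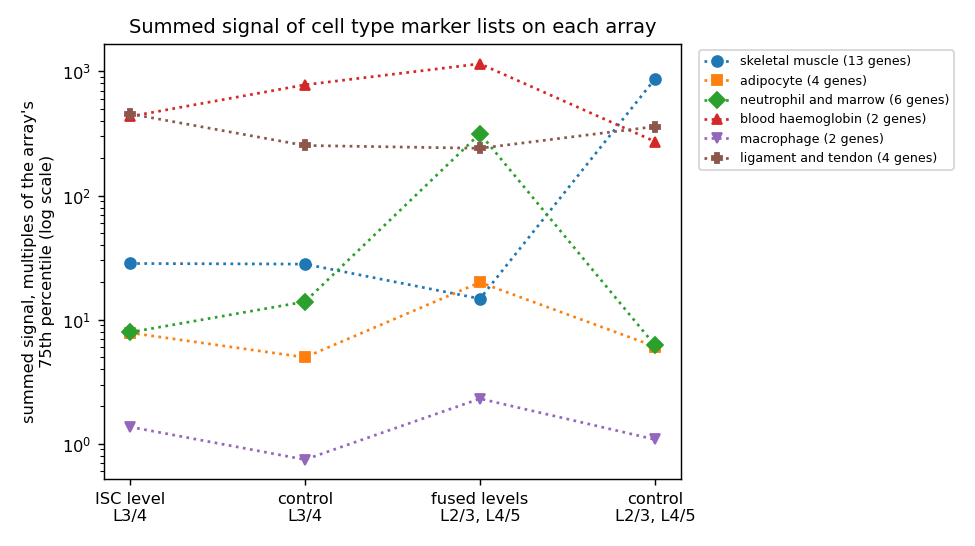
Summed signal of named marker genes, in multiples of the array's 75th percentile on a log scale (vertical axis), for 6 cell type lists on the 4 arrays (horizontal axis); dotted lines only join points of a list. Muscle genes stand at 869 in the flanking control and the neutrophil and marrow genes at 316 at the fused levels.

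The named genes most like VLDLR over the 4 arrays were sought by the smallest distance between profiles centred on each gene's mean, among 1010 named genes well above background on at least 3 arrays. The nearest were DISC1 at a distance of 0.63, CAMK2D, a calcium/calmodulin-dependent kinase gene, at 0.74, SLC12A4, a potassium-chloride cotransporter gene, at 0.75, ITGB8, an integrin chain gene, at 0.80, and NHERF2 at 0.80. All 5 were lowest in the L3/4 control and highest in the flanking control, as VLDLR was. The probes used for DISC1, SLC12A4 and ITGB8 were not well above background in the L3/4 control, so their distances rest in part on dim spots. The ratio to that control at the ISC level was 1.61 for NHERF2 and 2.12 for CAMK2D, and the ratios of all 5 at the fused levels ran from −0.88 for ITGB8 to −0.22 for DISC1. None of the 5 was 2-fold lower at the fused levels. With 4 arrays, such likeness is a description only.

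APOD had another pattern, with the control arrays close together and the fused levels far above all others. Its level was 3.09 at the ISC level, 1.79 in the L3/4 control, 5.32 at the fused levels and 2.13 in the flanking control. The processed signals were 798 ± 79.8, 185 ± 18.5, 3413 ± 341 and 318 ± 31.9 (± scanner error, 1 spot each), in the same order. The spot was well above background on every array and saturated on none. The control arrays differed by −0.34 ± 0.20 on the log2 scale, a difference of 1.67 scanner errors, with the L3/4 control the lower.

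At the fused levels APOD was 9.12-fold above the flanking control, a log2 ratio of 3.19 ± 0.20. It ranked 14 from the top of 958 named genes, and 194 of 13717 features had a ratio at least as high. Against the L3/4 control it was 11.6-fold higher, at 3.53 ± 0.20. Unlike that of VLDLR, the direction for APOD was the same with either control array, and so was its place past 2-fold.

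At the ISC level APOD was 2.46-fold higher than in the L3/4 control, at 1.30 ± 0.20, and 1.94-fold higher than in the other control, at 0.96 ± 0.20. The first ratio was past 2-fold and the second just short of it. APOD at the ISC level was 4.70-fold below the fused levels, at −2.23 ± 0.20. The order was therefore the fused levels, the ISC level, and then both controls. A single probe measures APOD, so no second probe bears on these values.

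At the fused levels, where APOD was highest, the lists of several other cell types were high as well. The neutrophil and marrow genes summed to 316 there, beside 6.20 to 13.9 on the other arrays. All 6 named genes were at least 2-fold above the control of the same levels, as were 7.84% of all features. The adipocyte genes summed to 20.0, beside 4.97 to 7.83 elsewhere. All 4 named genes were at least 2-fold above that control, and 3 of the 4 above the L3/4 control. Against the latter, where 24.2% of all features were at least 2-fold apart, PPARG was at −0.22. The macrophage genes CD14 and MSR1 summed to 2.31, beside 0.74 to 1.37. Haemoglobin genes summed to 1152 at the fused levels and 780 in the L3/4 control, where APOD was lowest. They summed to 434 at the ISC level and 272 in the flanking control. The fibroblast list, DCN, LUM and OGN, ranged from 244 to 366 and was 340 at the fused levels. The nerve gene S100B was at a level of 0.94 at the fused levels and lay between −0.59 and 0.64 on the other arrays. The part of any of these cell types in the APOD signal was not tested.

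Among the genes most like APOD over the arrays, by the same measure and the same 1010 genes, were IFNG, the interferon gamma gene, at a distance of 0.83, PSAT1, an enzyme of serine synthesis, at 1.04, VCAM1, a vascular adhesion molecule, at 1.11, and ADH1A, an alcohol dehydrogenase gene, at 1.13. These 4 were highest at the fused levels. Their ratios there ran from 2.21 for VCAM1 to 3.51 for PSAT1, and their ratios at the ISC level from 0.11 for VCAM1 to 0.63 for IFNG, all below the 1.30 of APOD. These distances were larger than those of the nearest genes to VLDLR.

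Around these genes, 161 symbols of lipoprotein and lipid handling were listed, of which 38 could be named on the array. At the ISC level 25 were measured, well above background on the arrays compared, with 4 past 2-fold on the higher side and 5 on the lower side. The background over all features was 9.08% higher and 10.5% lower. At the fused levels 24 were measured, with 7 past 2-fold on the higher side and 5 on the lower side, beside 7.84% and 9.15% of all features. These counts hold VLDLR and APOD themselves, which were chosen for their values, so nothing is read from them about the list. The medians were 0.09 at the ISC level and 0.18 at the fused levels, beside −0.17 and −0.14 over all features.

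Among the lipoprotein receptors, 4 of 7 named genes were measured in each comparison. At the ISC level only VLDLR of the 4 was past 2-fold, while SORL1, a sorting receptor, was at 0.36, and SCARB1, the high density lipoprotein receptor, was at −0.52. At the fused levels SORL1 was at 2.82 and SCARB1 at 1.0, with 5 probes from 0.31 to 1.0, whereas VLDLR was at −1.02. Against the L3/4 control all 3 were higher at the fused levels, SORL1 at 1.96, SCARB1 at 0.40 and VLDLR at 2.45. MSR1, a scavenger receptor of macrophages, was well above background at the ISC level and the fused levels and on neither control array, by at least 1.94-fold and 2.26-fold against the control of the same level. OLR1 and LRP11 were not well above background on any array.

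Lipoprotein lipase, LPL, hydrolyses the triglycerides of very low density lipoprotein, and its signal followed neither member fully. Its level was 0.69 at the ISC level, −1.74 in the L3/4 control, 2.81 at the fused levels and 0.26 in the flanking control. Like VLDLR it was lowest in the L3/4 control, and like APOD it was highest at the fused levels. Its ratio was 2.43 at the ISC level and 2.55 at the fused levels, and 0.43 and 4.55 against the other control array. The other lipase genes named, LIPC and LIPG, were not well above background on any array. Of the other genes listed as ligands of VLDLR or near reelin, F8, coagulation factor VIII, was at 0.67 and −1.60 by a probe well above background on all 4 arrays, while its other probe passed on none. PLAU, urokinase, was at 0.56 and 1.01, with a probe at −0.58 at the fused levels. TFPI, an inhibitor of coagulation, was at 0.21 and 0.82, and PLAT, tissue plasminogen activator, was at 0.00 and 0.45.

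**Figure D4:**
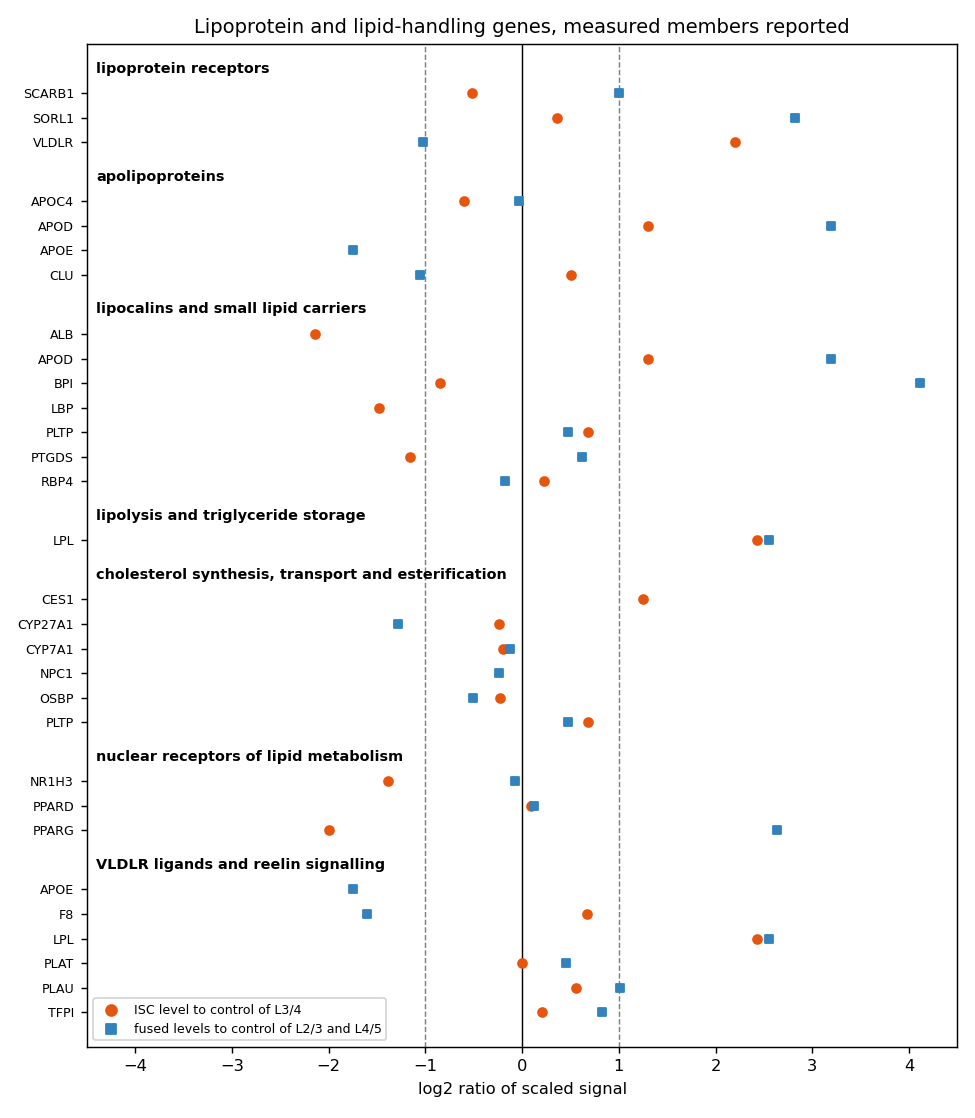
Log2 ratio of scaled signal (horizontal axis) for the reported measured genes of 7 lipid lists (vertical axis), with circles for the ISC level against the L3/4 control and squares for the fused levels against the flanking control; a gene in several lists is drawn in each, and dashed lines mark 2-fold. VLDLR and PPARG lie past 2-fold on opposite sides in the comparisons, while LPL and APOD lie past 2-fold on the higher side in both.

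The other apolipoproteins did not share the values of APOD. CLU, clusterin (apolipoprotein J), was at 0.50 at the ISC level and −1.06 at the fused levels, and APOC4 at −0.60 and −0.04. APOE, a ligand of VLDLR, was at −1.75 at the fused levels, did not pass as well above background on the arrays of L3/4, and was brightest in the flanking control. APOA1 was not well above background on any array. Of 4 apolipoproteins measured at the fused levels, APOD, chosen for its high ratio there, was the 1 that was 2-fold higher. APOE and CLU were 2-fold lower. Over all features, 7.84% were 2-fold higher and 9.15% lower. Against the L3/4 control, where 3 apolipoproteins were measured, 0 were 2-fold lower, and CLU was at −0.12.

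Among lipocalins and other small carriers, 7 were measured at the ISC level and 5 at the fused levels. PTGDS, the lipocalin-type prostaglandin D synthase, was at −1.16 at the ISC level and 0.62 at the fused levels, and RBP4, the lipocalin that carries retinol, at 0.23 and −0.17. Neither had the pattern of APOD. BPI, a lipid-binding protein of neutrophil granules, was at 4.12 at the fused levels and −0.85 at the ISC level. ALB, albumin, was at −2.14 at the ISC level and not well above background on the arrays of L2/3 and L4/5, and LBP, a lipopolysaccharide carrier, was at −1.48 at the ISC level. PLTP, which transfers phospholipids between lipoproteins, was at 0.68 and 0.47.

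Genes of cholesterol handling were mostly near 0 by their brightest probes. OSBP, an oxysterol-binding protein, was at −0.23 at the ISC level and −0.51 at the fused levels. Its 4 probes, dim ones not left out, ran from −0.71 to 0.13 and from −1.51 to −0.17. CYP7A1, the first enzyme of bile acid synthesis, was at −0.20 and −0.13, with 4 probes from −0.79 to 0.55 and from −0.66 to −0.13. CYP27A1, a sterol hydroxylase, was at −0.24 and −1.28. CES1, a carboxylesterase, was at 1.25 at the ISC level and, named after its value was seen, at least 11.8-fold higher at the fused levels, where its control was not well above background. Of the nuclear receptors, PPARG, the adipocyte regulator, was at −2.0 at the ISC level and 2.63 at the fused levels, NR1H3, a liver X receptor, at −1.39 and −0.07, and PPARD at 0.09 and 0.12. PPARG was thus opposite in sign to VLDLR in both comparisons, and the control arrays differed for it by 2.85, with the L3/4 control the higher.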

How the data were processed

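Cy3-labelled total RNA was hybridised to 1 array per group. The submitters' processing notes name Agilent Feature Extraction 12.0.3. The deposited spot intensities are linear, and per the file headers the processed signal has been corrected for background and for spatial trend within its array but not scaled to other arrays. Other columns, per the file headers, mark whether a spot is well above background. The authors' deposited value table holds the processed intensity times 1 factor per array, from 23.3 to 37.5, whose choice is not given in the sources used here, with medians of 515 (ISC level), 442 (L3/4 control), 498 (fused levels) and 504 (flanking control).

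Log2 of the processed signal minus each array's 75th percentile was used (a signal of 53.4 to 93.7). Control spots and 3 to 7 spots per array marked as outliers were left out. Replicate spots were averaged, with a median SD of 0.116 to 0.148 on the log2 scale over 50 probes. Unversioned RefSeq accessions were matched to a RefSeq table of mOryCun1.1, which gave names, and nothing else, to 3792 probes. The design refers to oryCun2, so no coordinates are given. A gene is represented by its probe of highest mean level. The counting was checked on simulated data.

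The members, the 7 lipid lists, the 11 marker lists (46 of 139 symbols named) and the 2-fold size were chosen with earlier results of these data known. Named genes are the members, the 2 highest and 2 lowest measured genes of each lipid list in both comparisons, LPL, APOE, PPARG and PTGDS, up to 2 genes of each marker list, and the 5 genes most like each member. Others are given to complete a list, and some genes are not reported here. Quantile normalization, cyclic loess and normexp (limma 3.58.1), with other choices, were alternatives. With 1 array per group no test was made.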

Additional observations from a re-analysis of the deposited data

Results flagged for a closer look

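VLDLR went in opposite directions at the ISC level and at the fused levels, each against the control of the same level, on all 4 probes. The log2 ratios were 1.83 and −0.90 by probe A_04_P000881, 2.20 and −1.02 by A_04_P000882, 2.25 and −0.96 by A_04_P000883, and 3.31 and −4.62 by A_04_P102632, a probe too dim to pass in the L3/4 control or at the fused levels, so that these last values hold only as bounds of at least 2.89-fold higher and 23.2-fold lower. PPARG (probe A_04_P001146) went in opposite directions as well, at −2.0 and 2.63. For VLDLR the opposite signs come with the control arrays, which were −3.47 apart by A_04_P000882, while the ISC level and the fused levels differed by −0.25 ± 0.20 (± scanner error). Against either single control both levels went the same way by this probe, at 2.20 and 2.45 to the L3/4 control and −1.27 and −1.02 to the flanking control. So it was for PPARG, at −2.0 and −0.22 to the L3/4 control and 0.85 and 2.63 to the flanking control. With 1 array per group these differences between the stressed and the fused levels were not tested. They were noted because each gene's only array moved one way at the one level and the other way at the other, with PPARG past 2-fold in both.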

How the results depend on the processing

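No paired analysis was possible because each group is 1 array. A ratio is taken to have moved when it changed by more than the spread of replicate spots, 0.167 to 0.207 on the log2 scale. The direction for VLDLR turned with the control array: against the other control, the ratio was −1.27 at the ISC level and 2.45 at the fused levels, both reversed, and against the mean of the controls 0.47 and 0.71, the second reversed. Normexp gave VLDLR 1.24 at the ISC level, −0.77 at the fused levels and −2.26 between the controls. By probe A_04_P000881 the ratio was 1.83 at the ISC level and −3.15 between the controls, and by A_04_P102632 the measured difference was 3.31, −4.62 and −5.85 in the 3 comparisons. One spot of each of these pairs was not well above background, so the values hold only as bounds, at least 2.89-fold higher, 23.2-fold lower and 16.8-fold lower. The mean over all probes was −1.88 at the fused levels and −3.96 between the controls. The mean without A_04_P102632, added after the data were seen, did not move in any of the 3. For APOD, the other control gave 0.96 at the ISC level and 3.53 at the fused levels, the mean of the controls 3.36 at the fused levels, and cyclic loess −0.53 between the controls. The cause was not tested. Quantile normalization, the authors' scaled values and median centring moved no member ratio. Normexp cut the calls over all features from 2687 to 523 at the ISC level, of which 66.3% were higher, beside 46.4% in the main setting, and 58.9% with the authors' scaling. At the fused levels 62.1% were higher with normexp, beside 46.1%.

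Of the lipid genes, normexp left 1 lower at the ISC level, 4 higher and 0 lower at the fused levels, and 1 higher between the controls (main counts 2 higher and 3 lower there), where the authors' scaling also gave 1 higher. Taking genes well above background on at least 1 array counted 28 genes, beside 24 at the fused levels and 22 between the controls. This gave 11 higher at the fused levels, and 6 higher and 5 lower between the controls. With no filter 38 genes counted, and these were 12, 7 and 9. The median of the lipolysis list at the fused levels was then −0.37 in place of 2.55, as dim LIPC and LIPG count. At 1.5-fold 7 were higher at the ISC level, and 5 higher and 6 lower between the controls. At 3-fold 2 were higher and 2 lower at the ISC level, 2 lower at the fused levels and 1 higher between the controls. Counts under other filters and fold sizes come without the share of all features there, so nothing is read from them about the lists. Of 168 list medians under other settings, 129 moved less than the spot spread.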
